A study of Rattus norvegicus with 10 samples.

Results

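The prostaglandin genes of the late fetal rat kidney were examined for a difference between fetuses of insulin-treated mothers and fetuses of normal mothers. The 10 genes were the cyclooxygenases Ptgs1 and Ptgs2, the prostaglandin synthases Ptges and Ptgds, the inactivating enzyme Hpgd, and the receptors Ptger1, Ptger2, Ptger3, Ptger4 and Ptgfr. They were taken as every probe set that GEO's platform annotation gives to 1 of these genes alone, which found 15 probe sets among the 15923 on the array. All 10 genes were represented, 5 of them by more than 1 probe set. The hyperinsulinemic group held 5 kidney samples (replicates 6 to 10) of growth-restricted fetuses, whose Wistar mothers received a 2 mm piece of a slow-release insulin implant under the skin before mating and again after it. The normal group held 5 samples (replicates 1 to 5) of fetuses whose mothers ate a regular diet, with no implant named in the labels. All kidneys were taken on day 22 of gestation, and the mothers of both groups were housed and fed alike per the labels. The labels name no dam, litter or fetal sex, so the p-values measure the spread between these samples only, and the growth restriction cannot be told apart from the mothers' insulin.

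Prostaglandins are lipid signals made from arachidonic acid. Cyclooxygenase turns the acid into an unstable intermediate, and a terminal synthase then makes prostaglandin E2, D2, F2 or another product, which acts near its source through G protein-coupled receptors before it is oxidised. In the kidney they dilate vessels and oppose salt and water reabsorption in the thick ascending limb and collecting duct, and mice that lack Ptgs2 form abnormal kidneys after birth.

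The stretches of 250 bases before the annotated start of the cyclooxygenase genes are printed because these genes open the pathway and their differences lay on opposite sides of 0. The sequences are from RefSeq on the GRCr8 build, where all 10 genes had an entry. Both are given 5′ to 3′ on the + strand, Ptgs1 at chr3:39981169-39981418 and Ptgs2 at chr13:64713813-64714062. Capitals mark matches, on either strand, to 5 motifs: the E-box with the letters CACGTG, the GC box with GGGCGG, the CCAAT box with that pentamer, the TATA box with TATAAA, and the cAMP response element with TGACGTCA.
Ptgs1: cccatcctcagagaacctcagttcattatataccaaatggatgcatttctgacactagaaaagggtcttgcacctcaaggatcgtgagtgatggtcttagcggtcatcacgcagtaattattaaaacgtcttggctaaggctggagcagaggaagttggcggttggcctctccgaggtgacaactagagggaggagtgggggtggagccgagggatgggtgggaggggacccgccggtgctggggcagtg
Ptgs2: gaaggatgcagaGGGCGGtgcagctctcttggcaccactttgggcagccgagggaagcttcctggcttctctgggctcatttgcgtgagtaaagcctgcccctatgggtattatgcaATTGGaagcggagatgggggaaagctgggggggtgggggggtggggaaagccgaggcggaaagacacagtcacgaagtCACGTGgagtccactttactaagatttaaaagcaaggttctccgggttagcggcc
The Ptgs2 stretch held 1 E-box, starting 55 bases before the start, 1 GC box and, on the other strand, 1 CCAAT box, whereas the Ptgs1 stretch held no match to the 5 motifs. No motif overlapped another. Of 33469 such stretches, 5.59% held the E-box, 30.5% the GC box, 34% the CCAAT box, 12.9% the TATA box and 1.59% the cAMP response element. Among the 10 genes, Ptgs2 alone held the E-box, and the GC box was found in 6. These letters describe the sequence. The signals entered only the choice of the cyclooxygenase genes, by the sides of their differences, neither of which was called in the fit below.

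Each value below is a MAS5 signal, the intensity that the Affymetrix algorithm gives to a probe set. Genes of the nephron were well measured, as all 14 kidney markers on the array passed the signal filter described below, among them the phosphate transporter gene Slc34a1 (mean signal 2682 with insulin-treated mothers and 2600 with normal ones) and the water channel gene Aqp2 (1756 and 1299). The arrays that stood apart by genes of neighbouring organs were hyperinsulinemic replicate 6 and normal replicates 4 and 1. The summed signal of 13 liver genes was 6500 on hyperinsulinemic replicate 6 and 1817 to 2786 on the other hyperinsulinemic arrays, against 3136 on normal replicate 4 and 1460 to 1490 on the other normal arrays; 7 of the 8 tested liver genes were higher and 0 were called by limma, with 5 at an unadjusted p under 0.05. The summed signal of 9 adrenal genes was 1016 on normal replicate 1, against 164 to 252 on the other normal arrays and 137 to 248 on hyperinsulinemic arrays. All 9 were below the filter, and not all of them were raised on that array. The X-inactivation transcript Xist ran from 42.4 to 70.5 in the hyperinsulinemic group, against 0.8 to 2 in the normal group. In the fit without a filter, described below, limma called Xist (log2 difference 2.07 ± 0.11, adjusted p = 2.33e-06), beside 0.0315% of all probe sets. The Y-linked gene Sry overlapped, at 3.7 to 25.6 against 9.8 to 24.2, signals at the low end of the scale. Both genes were below the filter. The labels name no fetal sex, so group, Xist level and any difference of fetal sex cannot be told apart in any comparison here. The summed signal of 11 stroma genes ran from 12370 to 14421 in the hyperinsulinemic group, against 13645 to 15644 in the normal group. Of the 11, 2 were higher and 9 lower, 4 with an unadjusted p under 0.05, and limma called 0; for Lum, a matrix proteoglycan gene (-0.63 ± 0.11, unadjusted p = 5.52e-05), the groups did not overlap. Beside these counts, 5.36% of all tested probe sets had an unadjusted p under 0.05, and 0.977% of all probe sets had groups that did not overlap. Of 4 tested smooth muscle genes 1 was higher and 3 lower, with Tagln at -0.42 and Des at 0.32 (limma, unadjusted p = 0.00409 and 0.00448). The part of these cells in the results was not tested. In whole kidney RNA, fewer cells of a type and less RNA per cell cannot be told apart.

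No prostaglandin gene passed the test. A probe set was tested where its signal reached the 40th percentile of its array, 79.2 to 87.6, on at least 5 of the 10 arrays. This left 6 of the 15 probe sets, of Ptges, Hpgd and Ptger3, and 9601 probe sets in all. Among the 6, limma called 0 at an adjusted p under 0.05 and 0 had an unadjusted p under 0.05, while 0.0104% and 5.36% of all tested probe sets did so. The other 9 probe sets, of Ptgs1, Ptgs2, Ptgds, Ptger1, Ptger2, Ptger4 and Ptgfr, lay below the filter. Their differences are given from the same model fitted without a filter to all 15866 probe sets that are not controls, where limma called 0 of the 15 and 0.0315% of all. In that fit 1 of the 15 (Ptgds) and 5.22% of all had an unadjusted p under 0.05. The groups overlapped for all 15, against 0.977% of all probe sets with groups that did not. All log2 differences are hyperinsulinemic minus normal on the log2(signal + 16) scale and carry their standard error. Signals are listed in the order of the replicate numbers.

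**Figure D1:**
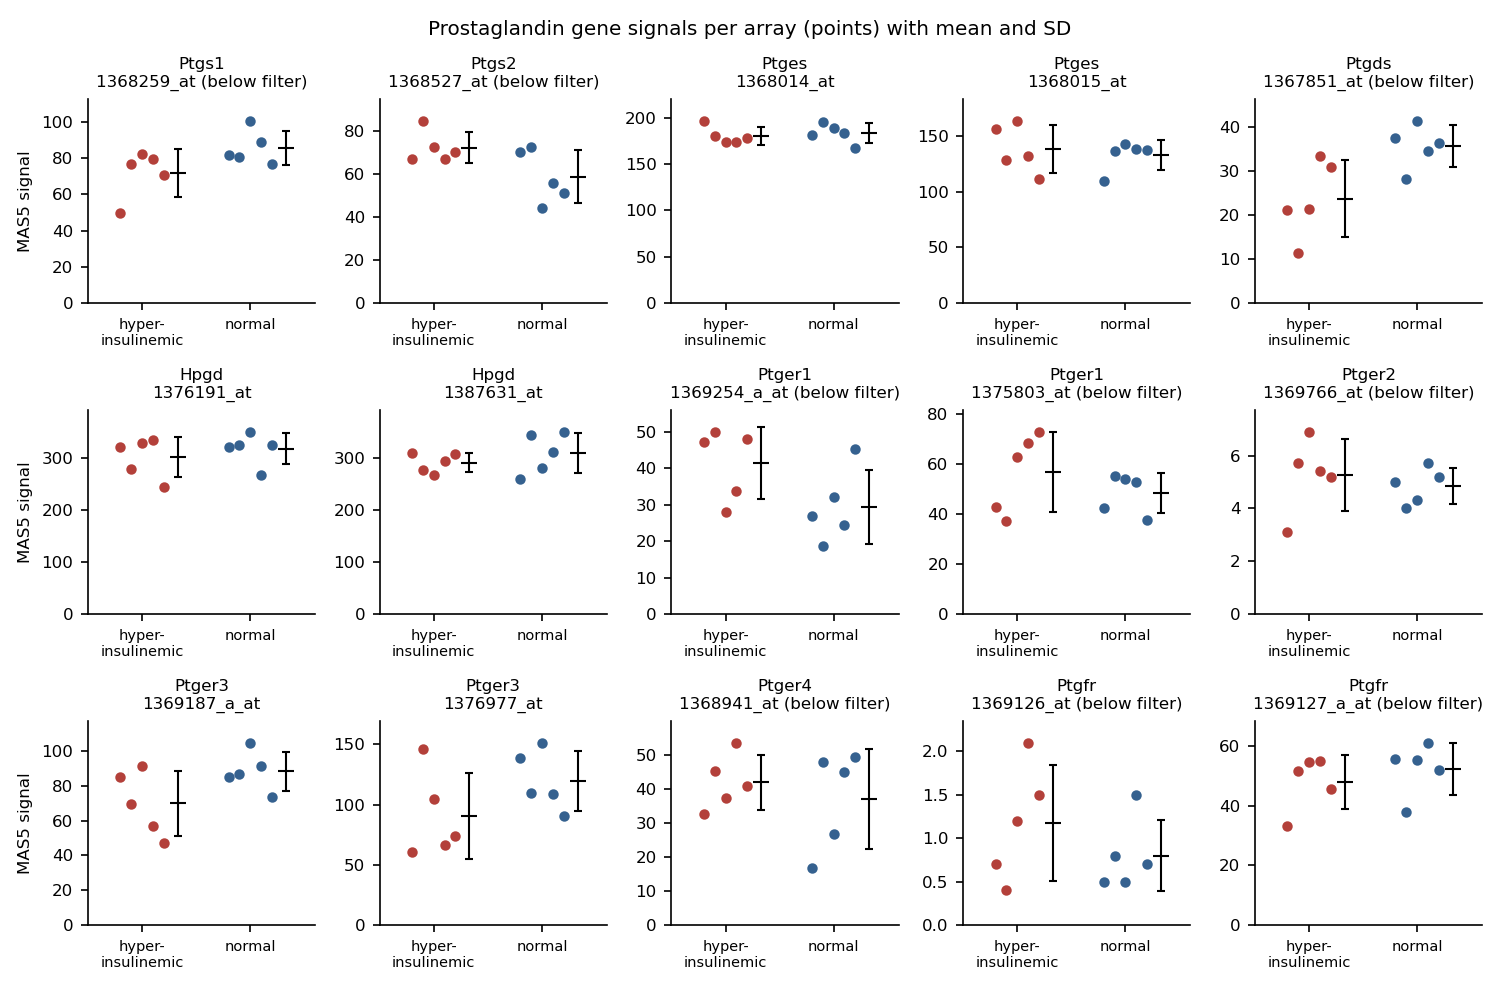
MAS5 signal (vertical axis, from 0) of each of the 15 probe sets on the 5 hyperinsulinemic arrays (red) and the 5 normal arrays (blue), with the mean and SD beside the points. The ranges of the groups overlap in every panel, and the Ptgs2 points of the hyperinsulinemic group lie between 66.7 and 84.6, against 43.9 to 72.4 in the normal group.

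Of the cyclooxygenases, Ptgs1 encodes the form made at a steady level in many cells. Its signal was 49.7, 77.0, 82.1, 79.7 and 70.9 in the hyperinsulinemic group, against 81.9, 80.5, 100.6, 88.8 and 76.7 in the normal group. The hyperinsulinemic arrays were the lower ones on average, with replicate 6 the lowest of all 10, but the groups overlapped. The means were 71.9 ± 13.1 and 85.7 ± 9.41 (SD, n = 5 each), a log2 difference of -0.22 ± 0.12 (limma without filter, adjusted p = 0.957), and without replicate 6 it was -0.12.

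Ptgs2 encodes the inducible form, which in the kidney is made in the macula densa and the medullary interstitium. Its signal was 66.7, 84.6, 72.6, 66.7 and 70.3 in the hyperinsulinemic group, against 69.9, 72.4, 43.9, 55.7 and 51.0 in the normal group. The 5 hyperinsulinemic values all lay above the normal median of 55.7, while normal replicates 1 and 2 lay within the hyperinsulinemic range. The means were 72.2 ± 7.38 and 58.6 ± 12.3 (SD, n = 5 each), a log2 difference of 0.25 ± 0.12 with a 95% interval of -0.02 to 0.52 (limma without filter, unadjusted p = 0.0628, adjusted p = 0.949). With 1 array left out the value ran from 0.18 (without normal replicate 3) to 0.32 (without normal replicate 2), and it was 0.28 without hyperinsulinemic replicate 6. Ptgs1 reached the filter's percentile on 2 arrays and Ptgs2 on 1, so both are dim on this array and their differences rest on signals near the low end of the scale.

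The cyclooxygenases were also set side by side within each array, after their values had been seen, as the difference of log2(signal + 16) of Ptgs2 and Ptgs1. It was 0.33, 0.11, -0.15, -0.21 and -0.01 in the hyperinsulinemic group, against -0.19, -0.13, -0.96, -0.55 and -0.47 in the normal group. The groups overlapped through normal replicates 1 and 2, and hyperinsulinemic replicate 6, the array with the most liver signal, had the highest value. Normal replicate 4, the normal array with the most liver signal, was at -0.55, and the part of liver RNA was not tested. The means were 0.02 and -0.46, and no test was run on this ratio, which cannot say which of the genes differed.

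**Figure D2:**
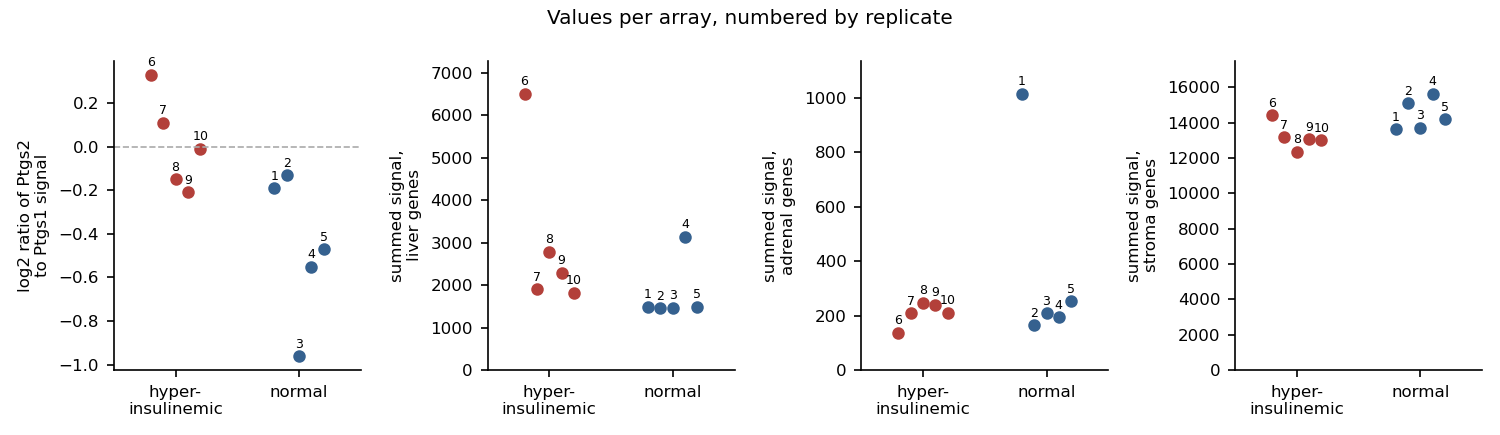
Values of each array, numbered by replicate, for the hyperinsulinemic (red) and normal (blue) groups: the log2 ratio of Ptgs2 to Ptgs1 signal, and the summed signals of the liver, adrenal and stroma genes. Hyperinsulinemic replicate 6 and normal replicate 4 stand apart by liver genes, at 6500 and 3136, and normal replicate 1 by adrenal genes at 1016. The ratio is 0.33, the highest, on hyperinsulinemic replicate 6 and -0.55 on normal replicate 4.

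Ptges encodes the inducible microsomal synthase of prostaglandin E2, and its first probe set was the least variable of those tested. The signal of 1368014_at was 196.8, 180.8, 173.6, 174.1 and 178.0 in the hyperinsulinemic group, against 181.5, 195.8, 188.6, 184.0 and 167.5 in the normal group. These values are interleaved. The log2 difference was -0.02 ± 0.07 (limma, adjusted p = 0.988), and its 95% interval runs from 0.89 to 1.09 as a fold. The second probe set, 1368015_at, had means of 138 ± 21.4 and 133 ± 13.1 (SD, n = 5 each), a log2 difference of 0.05 ± 0.10 (limma, adjusted p = 0.983). Its lowest value of all, 109.9, was on normal replicate 1, and without that array the difference was -0.01.

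Ptgds encodes a lipocalin-type synthase of prostaglandin D2. Its signal was 21.1, 11.5, 21.5, 33.4 and 31.0 in the hyperinsulinemic group, against 37.6, 28.3, 41.5, 34.7 and 36.5 in the normal group. The 5 hyperinsulinemic values all lay below the normal median, and 3 lay below every normal value. The log2 difference was -0.41 ± 0.15 with a 95% interval of -0.74 to -0.07, and it did not pass (limma without filter, unadjusted p = 0.0208, adjusted p = 0.949). The signal was under the filter's percentile on all 10 arrays. Without hyperinsulinemic replicate 7, the lowest array, it was -0.28, and with a pseudocount of 1 or 64 it was -0.65 or -0.19.

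Hpgd encodes 15-hydroxyprostaglandin dehydrogenase, which starts the breakdown of prostaglandins. Its probe set 1376191_at read 322.2, 279.3, 328.5, 334.0 and 245.0 in the hyperinsulinemic group, against 322.2, 325.2, 350.8, 268.1 and 325.9 in the normal group. The second, 1387631_at, read 310.8, 278.0, 266.8, 294.0 and 307.4 in the hyperinsulinemic group, against 260.2, 344.0, 281.8, 311.1 and 350.8 in the normal group. Both reached the filter's percentile on all 10 arrays, and in both the groups were interleaved. By 1387631_at the 5 hyperinsulinemic values all lay below the normal median of 311.1, while 2 normal values lay below it too. Each probe set gave a log2 difference of -0.08, with standard errors of 0.09 and 0.08 and an adjusted p of 0.973 in limma. As folds their 95% intervals run from 0.83 to 1.09 and from 0.84 to 1.07.

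Ptger3 encodes the EP3 receptor for prostaglandin E2, which couples mainly to the inhibitory G protein and in the kidney is found in the thick ascending limb and collecting duct. Its probe set 1376977_at read 60.8, 146.5, 104.9, 66.2 and 74.2 in the hyperinsulinemic group, against 138.5, 109.2, 151.3, 108.5 and 90.2 in the normal group. Hyperinsulinemic replicates 6, 9 and 10 lay below every normal array, and replicate 7 was the second highest of all 10. The means were 90.5 ± 35.6 and 120 ± 24.8 (SD, n = 5 each), and the log2 difference of -0.39 ± 0.19 did not pass (limma, unadjusted p = 0.0580, adjusted p = 0.932). It was -0.28 without replicate 6 and -0.55 without replicate 7, where the unadjusted p was 0.00337 and the adjusted p 0.556.

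The other Ptger3 probe set, 1369187_a_at, is of the kind that detects several transcripts of a gene. It read 85.2, 69.6, 91.2, 56.8 and 47.1 in the hyperinsulinemic group, against 84.9, 87.0, 104.7, 91.5 and 73.7 in the normal group. Replicates 7, 9 and 10 were the low hyperinsulinemic arrays here, so that replicates 9 and 10 were low by both probe sets and replicates 6 and 7 by 1 each. The log2 difference was -0.30 ± 0.14, with a 95% interval of -0.60 to 0.00 (limma, adjusted p = 0.931). The probe sets reached the filter's percentile on 7 and 5 arrays, more of them normal than hyperinsulinemic, so Ptger3 sits at the edge of the tested range.

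Ptger1 encodes the EP1 receptor, which raises cell calcium. Its probe set 1369254_a_at read 47.2, 50.0, 28.0, 33.7 and 48.1 in the hyperinsulinemic group, against 27.0, 18.6, 32.0, 24.3 and 45.4 in the normal group. Hyperinsulinemic replicates 6, 7 and 10 lay above all normal arrays, and the log2 difference was 0.35 ± 0.17 (limma without filter, unadjusted p = 0.0605, adjusted p = 0.949). The second probe set, 1375803_at, read 42.8, 37.1, 62.9, 68.3 and 72.9 in the hyperinsulinemic group, against 42.4, 55.1, 54.0, 52.8 and 37.6 in the normal group. Its log2 difference was 0.16 ± 0.16 (limma without filter, adjusted p = 0.988), 0.08 without hyperinsulinemic replicate 10 and 0.26 without replicate 7. The probe sets did not rank the hyperinsulinemic arrays alike: replicate 7 was the highest of them by the one and the lowest by the other.

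Ptger2 and Ptger4 encode the EP2 and EP4 receptors, which raise cyclic AMP. Ptger2 was near the floor of the array, at 3.1 to 6.9 in the hyperinsulinemic group, against 4 to 5.7 in the normal group. Ptger4, a receptor through which prostaglandin E2 acts on the ductus arteriosus, read 32.5, 45.1, 37.3, 53.5 and 40.8 in the hyperinsulinemic group, against 16.6, 47.8, 26.7, 44.9 and 49.2 in the normal group. The log2 difference of Ptger4 was 0.16 ± 0.19 (limma without filter, adjusted p = 0.988), and it was 0.00 without normal replicate 1, whose 16.6 was the lowest value of all. Ptgfr encodes the receptor for prostaglandin F2-alpha. Its probe set 1369126_at ran from 0.4 to 2.1 in the hyperinsulinemic group, against 0.5 to 1.5 in the normal group, which is at the floor. Its probe set 1369127_a_at ran from 33.4 to 55.2 in the hyperinsulinemic group, against 38 to 61.2 in the normal group, with a log2 difference of -0.10 ± 0.13. At these levels no difference in Ptger2 or Ptgfr was detectable, which does not show that there is none.

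**Figure D3:**
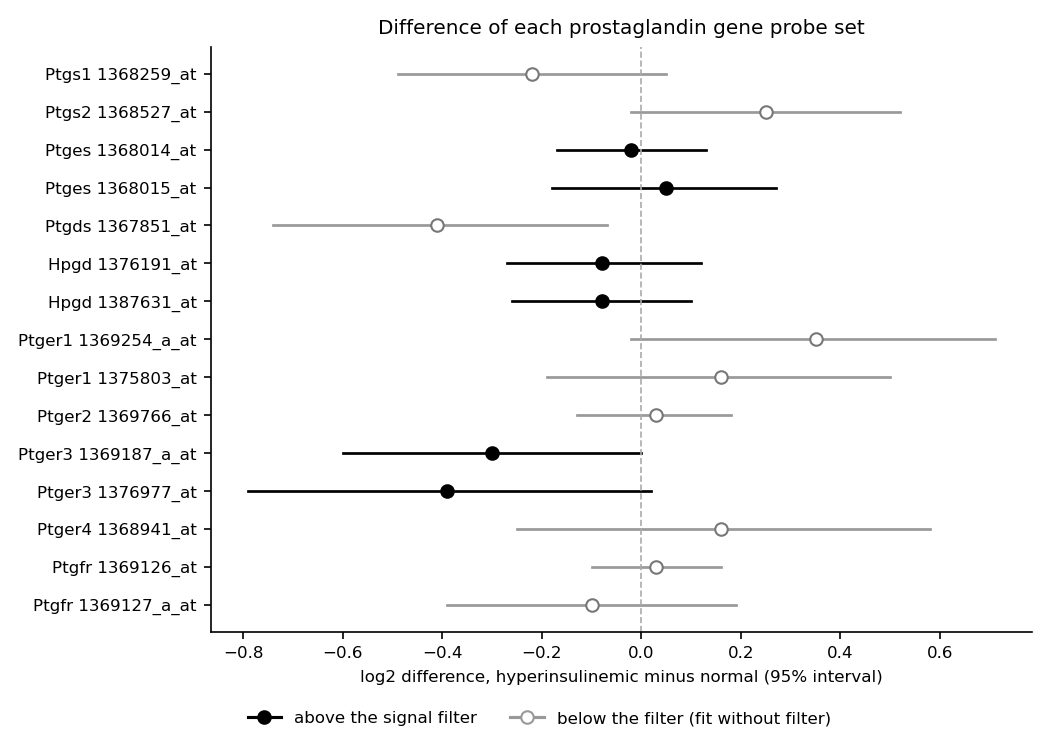
Log2 difference, hyperinsulinemic minus normal, of each probe set (horizontal axis) with its 95% interval from limma. Filled points are the 6 probe sets above the filter and open points the 9 below it; the interval of Ptgds is the 1 that leaves out 0, and it did not pass after adjustment.

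Over the whole set the directions were mixed. Of the 6 tested probe sets 1 was higher and 5 were lower, with a median log2 difference of -0.08. Of all 9601, 49.1% were lower, with a median of 0.00. The 6 are pairs from 3 genes, so their directions are not independent. Both Ptger3 probe sets reached the filter's percentile on more normal than hyperinsulinemic arrays, so this count describes the 6 and shows no lean of the set. Of all 15, 7 were higher and 8 lower, with a median of -0.02; of all 15866, 50.2% were lower, with a median of 0.00. The standard deviation of the log2 signal over the 10 arrays was 0.40 for Ptger3 (1376977_at), 0.16 for Hpgd (1376191_at) and 0.07 for Ptges (1368014_at), and the median over all tested probe sets was 0.13. Among these probe sets Ptger3 thus varied the most and Ptges the least. The second probe sets had 0.29 for Ptger3 (1369187_a_at), 0.14 for Hpgd (1387631_at) and 0.16 for Ptges (1368015_at), so Ptges was not the least variable by both.

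The genes most like the tested members in their pattern over the 10 arrays were picked by Pearson's r of log2 signal, among tested probe sets with 1 gene symbol. For Ptger3 (1376977_at) they were Mcl1 (r = 0.957), Ebag9 (0.953) and Nemf (0.949). For Hpgd (1376191_at) they were Dtd1 (r = 0.947), Dpm1 (0.946) and Tmem199 (0.906). By ranks (Spearman's rho) these Hpgd matches had 0.760, 0.754 and 0.772, while those of Ptger3 and Ptges had 0.818 or more. The Hpgd matches are for that probe set, as 1387631_at ordered the arrays differently. Hyperinsulinemic replicate 10 was the lowest array by 1376191_at, and normal replicate 1 by 1387631_at. For Ptges (1368014_at) they were Rcan2 (r = 0.934), Pccb (0.903) and Nol7 (0.889). Each match was picked as the highest over all tested probe sets on the same arrays, which share scaling and RNA quality, and is given as a description with no test.

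The other steps of the pathway were read from 6 lists of genes around the 10. Of the 104 genes listed, 81 were on the array, with 112 probe sets, of which 64 were tested. Limma called 0 of the 64 at an adjusted p under 0.05, and 4 had an unadjusted p under 0.05. Of these 1 was higher and 3 were lower, beside 2.44% and 2.93% of all tested probe sets. Of the 64, 36 were higher and 28 lower, with a median log2 difference of 0.02.

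Arachidonic acid is freed from membranes by phospholipases, of which the cytosolic form encoded by Pla2g4a is the main one for prostaglandins. Pla2g4a stood at 382 ± 20.6 in the hyperinsulinemic group, against 405 ± 27.6 in the normal group (log2 difference -0.08 ± 0.06, limma adjusted p = 0.973). Anxa1, which encodes annexin A1, an inhibitor of phospholipase A2, stood at 696 ± 82.6 and 766 ± 32.7 (-0.14 ± 0.08, adjusted p = 0.941). In that list 4 tested probe sets were higher and 6 lower.

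Among the other synthases, Ptges2 and Ptges3, the further prostaglandin E synthases, differed by 0.07 and 0.04, and Akr1b1, whose product can make prostaglandin F2-alpha, by 0.03. Tbxas1, the thromboxane synthase gene, differed by -0.06, and Hpgds, the haematopoietic prostaglandin D synthase gene, by 0.04. The prostacyclin synthase gene Ptgis was below the filter, at 11.8 to 32.2 in the hyperinsulinemic group, against 11.6 to 19.3 in the normal group. The list had 4 tested probe sets higher and 1 lower.

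Among the other receptors, Ptgfrn, which encodes a protein that binds the prostaglandin F2-alpha receptor and reduces its ligand binding, read 275.7, 208.4, 231.1, 228.4 and 251.8 in the hyperinsulinemic group, against 276.8, 250.2, 273.8, 269.1 and 289.0 in the normal group. Replicates 7, 8 and 9 lay below all normal arrays, and the log2 difference of -0.18 ± 0.08 did not pass (limma, unadjusted p = 0.0340, adjusted p = 0.918). The thromboxane receptor gene Tbxa2r differed by 0.06 and the nuclear receptor gene Ppard by 0.03. Prostaglandin uptake and breakdown genes were spread on both sides of 0, with 6 tested probe sets higher and 6 lower. The prostaglandin transporter gene Slco2a1 differed by -0.08 and Ptgr1, which acts after Hpgd, by -0.17 ± 0.09 (limma, adjusted p = 0.941).

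The largest differences around the pathway lay in its cytochrome P450 branch, where Cyp4a enzymes hydroxylate fatty acids, arachidonic acid included. The list that holds this branch is that of lipoxygenase and epoxygenase genes, with 2 tested probe sets higher and 5 lower. That count is not of cytochrome P450 genes alone, as it includes Lta4h (-0.07), Ltc4s (0.11) and Ephx1 (-0.04). Cyp4a3 read 391.7, 453.5, 497.4, 343.5 and 438.9 in the hyperinsulinemic group, against 499.4, 546.8, 512.9, 472.3 and 603.2 in the normal group. All hyperinsulinemic arrays but replicate 8 lay below all normal ones, and the log2 difference of -0.31 ± 0.09 did not pass (limma, unadjusted p = 0.00507, adjusted p = 0.737). Cyp4a1 differed by -0.42 ± 0.15 (unadjusted p = 0.0115, adjusted p = 0.870) and the brighter probe set of Cyp4a8 by -0.08 ± 0.15. The dimmer Cyp4a8 probe set, 1393894_at, was singled out after its values were seen: at 11.9 to 31.5 in the hyperinsulinemic group, against 35.8 to 48.9 in the normal group it was the 1 of the 112 whose groups did not overlap, beside 0.977% of all probe sets (log2 difference -0.69 ± 0.15, limma without filter, adjusted p = 0.485). Cyp4a genes are close paralogs, so a probe set may read more than 1 of them. In the other direction Cyp2c11, a cytochrome P450 gene expressed strongly in rat liver and below the filter here, read 155.8, 42.2, 85.4, 56.2 and 44.8 in the hyperinsulinemic group, against 41.8, 42.2, 30.9, 37 and 52 in the normal group (log2 difference 0.59 ± 0.26, limma without filter, unadjusted p = 0.0398, adjusted p = 0.949). Its highest value was on replicate 6, the array with the most liver signal, while normal replicate 4, the normal array with the most, read 37. The part of liver RNA in this difference was not tested. Cyp2c23, a renal epoxygenase gene, stood at 1994 ± 86.2 and 1946 ± 103 (0.03 ± 0.05).

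Prostaglandin receptors act through G proteins, by adenylyl cyclase and protein kinase A for some and by cell calcium for others such as EP1. Of 27 tested probe sets for this machinery, 18 were higher and 9 lower, and Prkaca, a catalytic subunit of protein kinase A, was the 1 with an unadjusted p under 0.05. Of all tested probe sets, 49.1% were lower and 5.36% had an unadjusted p under 0.05. Prkaca stood at 355 ± 56.7 in the hyperinsulinemic group, against 301 ± 18.7 in the normal group, a log2 difference of 0.22 ± 0.10 (limma, unadjusted p = 0.0390, adjusted p = 0.918). Aqp2, whose insertion into the collecting duct membrane prostaglandin E2 opposes, differed by 0.45 ± 0.11 (limma, unadjusted p = 0.00118, adjusted p = 0.540). The groups did not overlap for Aqp2, beside 0.977% of all probe sets with groups that did not. Aqp2 had the smallest p of the 14 kidney markers, of which 7 were higher and 7 lower. The next were Aqp3 at 0.18, Slc5a2, a proximal tubule glucose transporter gene, at -0.29, and Scnn1b, a sodium channel subunit gene of the collecting duct, at -0.14.

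**Figure D4:**
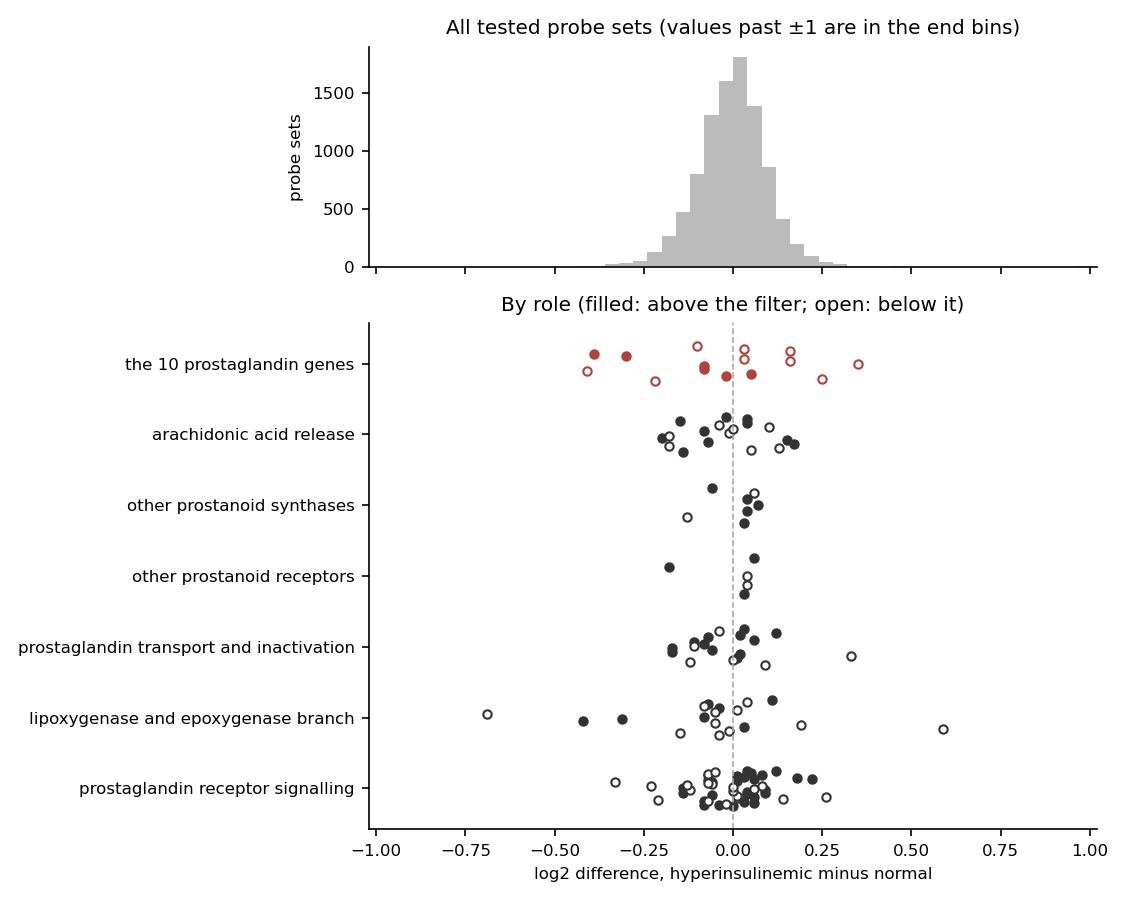
Upper panel: number of tested probe sets by log2 difference, hyperinsulinemic minus normal. Lower panel: each probe set of the 10 prostaglandin genes (red) and of the 6 pathway lists (black) on the same axis, filled where above the filter and open where below it; the points farthest from 0 are a Cyp4a8 probe set at -0.69 and Cyp2c11 at 0.59, both below the filter.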

How the data were processed

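Total RNA of 10 rat kidney samples was measured on 1-colour Affymetrix arrays. The deposited values were linear intensity values, made with MAS5 per the submitters' processing notes. Its version and settings are not given in the sources used here. For scaling, the mean of each array without the top and bottom 2% was 250, so they were used as deposited. Detection calls were not used here.

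Values were transformed as log2(signal + 16) after leaving out 57 control probe sets, and a probe set was tested above the 40th percentile of its array on at least 5 arrays. The contrast was fitted in R 4.3.3 by limma 3.58.1, with an intensity trend in eBayes; p-values are two-sided and were adjusted by Benjamini-Hochberg over all 9601 tested probe sets. Probe sets below the filter were read from the same fit to all 15866. The fit was tested on simulated data. The number of arrays limits the precision. Of the probe sets that are not controls, 12783 had 1 gene symbol, 312 several and 2771 none, and none was named from several. All 15 matched the same symbol by Entrez identifier in GRCr8. Genes of the pathway lists are given by their brightest probe set. Of each signalling or marker list, at most 4 members with the smallest p are named. To check the tissue, members among the 4 with the highest signal are named as well. The 10 genes, lists and tests were chosen with earlier results of these data known. Figures used Python 3.11.15 and matplotlib 3.10.9.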

Additional observations from a re-analysis of the deposited data

Results flagged for a closer look

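In 136 sets of 5 arrays (the 15 probe sets and the brightest probe set of each gene of the 5 pathway lists other than receptor signalling, in each group), 9 had 1 array far from the other 4 by Dixon's criterion, which chance meets in about 1 of 20. Among the 10 prostaglandin genes, Ptges (1368015_at) read 109.9 on normal replicate 1, against 136.4 to 142.6 on the other normal arrays. On hyperinsulinemic replicate 6, Cbr3 read 36.4 (others of its group 2.1 to 4.8) and Slco4a1 70.1 (others 94.6 to 101). On hyperinsulinemic replicate 7, Ptgis read 32.2 (others 11.8 to 16). On hyperinsulinemic replicate 10, Ephx1 read 428 (others 282.5 to 319.9) and Hsd17b4 787.3 (others 840 to 852.2). In the normal group, replicate 4 had Anxa1 at 822.4 (others 737 to 760.1) and Ptges2 at 413.2 (others 480 to 502.9), and replicate 2 had Slco4a1 at 73.2 (others 91.7 to 97).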

How the results depend on the processing

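The 15 log2 differences were recomputed with pseudocounts of 1 and 64, no filter, a filter at the 60th percentile, quantile or median normalization, no intensity trend, array weights, a liver score as covariate and each array left out, 263 values in all. No value passed, the lowest adjusted p being 0.556, and 5 changed sign, all close to 0. Ptges (1368015_at) was -0.07 with the liver covariate and -0.01 to 0.11 with an array left out. Over left-out arrays Ptges (1368014_at) ran from -0.05 to 0.00 and Ptger2 from 0.00 to 0.06. The count of prostaglandin probe sets called was 0 throughout, and so was that of the other pathway probe sets. The count over all tested probe sets, 1 as reported, was 5 without a filter, 2 with arrays shifted to a common median, 4 with array weights, 0 without the intensity trend, 0 with the liver score, and 0 to 4 with an array left out. At the 60th percentile filter Hpgd was the 1 prostaglandin gene still tested, so the rest have no value there. Without normal replicate 4 Ptgs2 was 0.24 and Ptgds -0.41. The liver covariate gave -0.10 for Ptgs1, and -0.47 (1369187_a_at) and -0.22 (1376977_at) for Ptger3; the cause was not tested. Signals below the filter limit what can be said of 7 of the 10 genes. No paired analysis was possible because the groups share no replicate number.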
